A study of Oryza sativa with 24 samples.

Results

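The SEP-like and AGL6-like MADS-box genes of rice, OsMADS34, OsMADS5, OsMADS1, OsMADS7, OsMADS8, OsMADS6 and OsMADS17, were followed through developing inflorescences of a mutant, tap, and the wild type (WT). They were taken by their locus identifiers, as the rows LOC_Os03g54170, LOC_Os06g06750, LOC_Os03g11614, LOC_Os08g41950, LOC_Os09g32948, LOC_Os02g45770 and LOC_Os04g49150 of the table, and they are 7 of its 26480 loci. All 7 passed the filter on low counts. The RefSeq gene table of another assembly lists each of these 7 names on the chromosome that the identifier gives, which are chromosomes 3, 6, 3, 8, 9, 2 and 4.

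MADS-box proteins of this kind are transcription factors that bind DNA as larger complexes. SEPALLATA-like (SEP-like) proteins are the members that such complexes share in flowers, where they join the factors for lodicules, stamens, carpels and ovules to each other. AGL6-like proteins belong to a sister clade and can take a similar place. In rice, OsMADS34 (also PAP2) acts early, on panicle branching and the identity of the spikelet meristem. OsMADS1 (also LEAFY HULL STERILE1) acts on lemma and palea identity and on the floral meristem, and OsMADS5 acts together with both. OsMADS7 and OsMADS8 form a close pair of the SEP3 clade that acts in the inner floral organs. OsMADS6 acts on palea and floral meristem identity, and OsMADS17 is its closest relative in the family.

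Transcripts were counted in 24 libraries of whole inflorescences of the line 9522, 3 from each of 8 groups. Mutant (tap) and WT inflorescences were sampled at a length of 2 mm or 3 mm from plants under a high or a low temperature treatment, so the groups differ in genotype, length and temperature and share the line and the tissue. The sample titles call the mutant ild while the genotype field calls it tap. With the mutated locus not given in the sources used here, as also the degrees and the duration of the treatment, no gene served to check the genotype labels. High-temperature columns are headed either WT or iHT, and the iHT columns were read as tap by inference. Separate plants are not stated for the replicates of a group, so p-values reflect the spread between these libraries alone, which may be technical.

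Library totals ran from 19819257 to 21305381 counts at high temperature and from 20410115 to 20992760 at low temperature. Levels below are counts per 1000000 (CPM) with TMM-scaled library sizes, given per library in the order of replicates 1, 2 and 3 or as mean ± SD over 3 libraries. Transcript lengths were not used, so levels are compared between groups for a gene and not between genes. All rows of the table have reads at low temperature and some have none at high temperature, and no source says whether the 2 temperature sets were grown, sequenced or counted together, so temperature and set cannot be told apart. A list of 6 loci that mark the inflorescence and spikelet meristem was detected in full in every group, with summed levels of 855 to 2256 CPM. Leaf markers summed to 18.7 to 157 CPM, with 1 of 5 at 0 counts in the 2 mm tap libraries at low temperature. The 4 of 5 anther and meiosis markers in the table summed to 223 to 538 CPM.

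**Figure D1:**
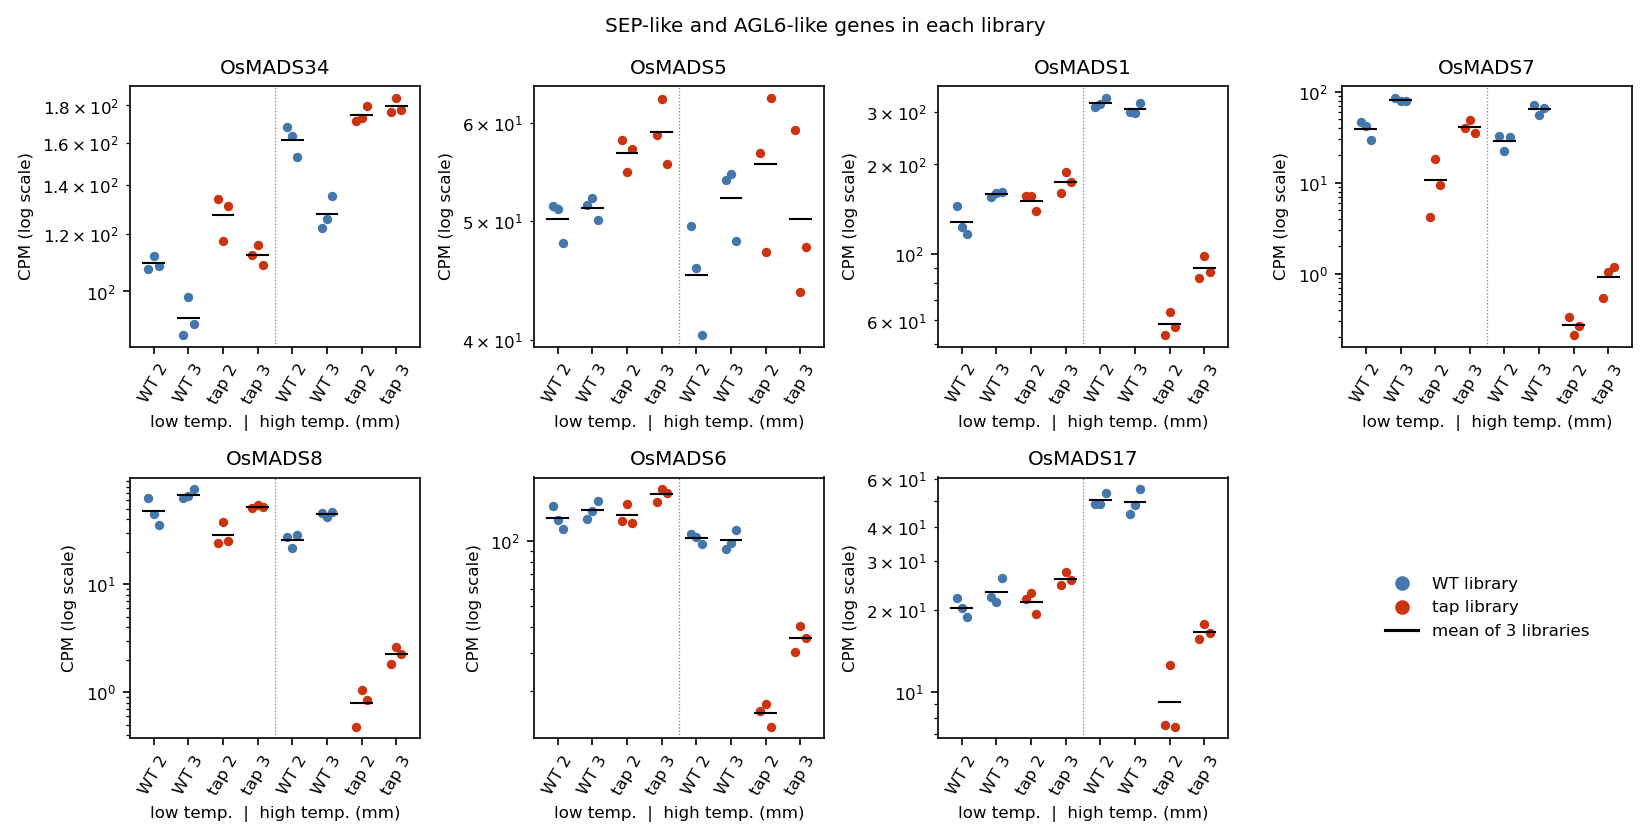
CPM of each of the 7 genes in every library, on log axes whose ranges differ between panels. The points are libraries (blue WT, red tap), the black lines are means of 3 libraries, and the dotted line divides low from high temperature; OsMADS7 and OsMADS8 lie at or below 2.65 CPM in all 6 tap libraries at high temperature.

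At high temperature, 5 of the 7 genes fell in tap at each length: OsMADS1, OsMADS7, OsMADS8, OsMADS6 and OsMADS17. The falls at 2 mm ran from 5.48-fold for OsMADS17 to 104-fold for OsMADS7, and at 3 mm from 2.83-fold for OsMADS6 to 69-fold for OsMADS7. OsMADS34 was not called lower at either length and was 1.41-fold higher in tap at 3 mm. With edgeR's quasi-likelihood test with Benjamini-Hochberg adjustment, 6 members were called at 2 mm, 5 lower and 1 higher, where 37% of all 23658 tested loci were called, 18.6% lower and 18.4% higher. At 3 mm 6 members were called again, 5 lower and 1 higher, where 37.1% of all loci were called, 17.8% lower and 19.3% higher. The median log2 difference of the 7 genes was -2.46 at 2 mm and -1.57 at 3 mm, and that of all tested loci was 0 at each length to within rounding. In whole inflorescences, fewer cells of a type and less RNA per cell cannot be told apart. The groups were matched by length and not by stage. A difference in stage between tap and WT of one length therefore cannot be told apart from genotype.

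OsMADS34, which acts earliest of the 7, stood at 172, 173 and 179.8 CPM in tap and 168, 164 and 153 CPM in WT, for 2 mm at high temperature. The 3 tap libraries lay just above the 3 WT libraries, and the log2 difference of 0.11 ± 0.078 (SE) did not pass the test (adjusted p = 0.259, 95% confidence interval -0.044 to 0.27). At 3 mm its values were 176, 184 and 178 CPM in tap and 122, 126 and 135 CPM in WT. Every tap library was above every WT library, and the gene was higher in tap by 0.49 ± 0.078 on the log2 scale (adjusted p = 1e-05).

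OsMADS5, a relative of OsMADS1, varied least among the 7 and stayed between 40.4 and 62.9 CPM in all 24 libraries. At 2 mm and high temperature it had 56.7, 47.1 and 62.9 CPM in tap and 49.5, 45.7 and 40.4 CPM in WT. The libraries of the groups overlapped, and the difference of 0.30 ± 0.11 on the log2 scale was called (adjusted p = 0.0267). This call was lost without tap replicate 1, without tap replicate 3 or without WT replicate 3 (adjusted p up to 0.151) and in a fit of the compared groups alone (adjusted p = 0.0711). At 3 mm the difference was -0.056 ± 0.11 (adjusted p = 0.721).

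OsMADS1, the lemma and palea gene, had 53.6, 64.2 and 57.1 CPM in tap and 312, 318 and 334 CPM in WT, for 2 mm at high temperature. At 3 mm it had 83.3, 98.9 and 87.3 CPM in tap and 301, 299 and 322 CPM in WT. Every tap library lay below every WT library, and the tap libraries of 3 mm lay above those of 2 mm. The log2 difference was -2.46 ± 0.10 at 2 mm (adjusted p = 1.8e-18) and -1.77 ± 0.10 at 3 mm (adjusted p = 2.57e-15). At 2 mm, 236 of the 23658 tested loci (0.998%) fell at least as far.

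OsMADS7 and OsMADS8, the SEP3-clade pair, had the lowest levels of the 7 in tap relative to WT. OsMADS7 had 0.337, 0.211 and 0.267 CPM in 2 mm tap inflorescences, which are 7, 4 and 5 reads, against 32.7, 22.6 and 31.7 CPM in WT. At 3 mm OsMADS7 had 0.545, 1.05 and 1.19 CPM in tap and 71, 55.1 and 65.9 CPM in WT. The highest tap library thus lay far below the lowest WT library at each length, with differences of -6.70 ± 0.56 (adjusted p = 6.89e-08) and -6.11 ± 0.46 (adjusted p = 1.21e-08) on the log2 scale. OsMADS8 had 0.481, 1.05 and 0.853 CPM in tap at 2 mm, or 10, 20 and 16 reads, and 27, 21.4 and 28.2 CPM in WT. Its 3 mm values were 1.83, 2.65 and 2.28 CPM in tap and 45.5, 41.4 and 46 CPM in WT. The groups were again apart, and the log2 differences were -5.01 ± 0.27 (adjusted p = 7.09e-13) and -4.30 ± 0.23 (adjusted p = 4.23e-13). Of the 23658 tested loci, 16 fell at least as far as OsMADS7 at 2 mm and 36 at least as far as OsMADS8.

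Both AGL6-like genes fell in tap at high temperature. OsMADS6 had 16.2, 17.5 and 13.7 CPM in tap and 108, 105 and 97.2 CPM in WT, for 2 mm at high temperature. At 3 mm OsMADS6 had 30.6, 40.4 and 35.4 CPM in tap and 91.5, 97.4 and 113 CPM in WT. The tap values at 3 mm lay between those of 2 mm tap and of WT, and the log2 differences were -2.71 ± 0.12 (adjusted p = 4.85e-17) at 2 mm and -1.50 ± 0.12 (adjusted p = 1.37e-11) at 3 mm. OsMADS17 had 7.56, 12.5 and 7.46 CPM in tap and 48.8, 48.6 and 53.3 CPM in WT at 2 mm. At 3 mm OsMADS17 had 15.7, 17.7 and 16.4 CPM in tap and 44.6, 48.3 and 55 CPM in WT. Replicate 2 of 2 mm tap was higher than the other 2 libraries of its group but stayed below all WT libraries, and the log2 differences were -2.45 ± 0.14 (adjusted p = 1.31e-14) and -1.57 ± 0.13 (adjusted p = 8.77e-11).

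The summed levels of tissue markers differed between the genotypes at high temperature as well, while only some markers of each list were called. The summed meristem markers ran from 1814 to 2256 CPM in tap and from 1566 to 1748 CPM in WT at 2 mm, and from 1577 to 1974 and 1089 to 1399 CPM at 3 mm. This list shares OsMADS14, OsMADS15 and FZP with the floral MADS-box and spikelet lists below. OsMADS14 and OsMADS15 made up most of the sum at 2 mm. They were at 435 ± 88.3 and 849 ± 99.3 CPM in tap and 413 ± 19 and 634 ± 32.1 CPM in WT. Of the 3 anther and meiosis markers tested, 1 was called lower and 1 higher in tap at each length. The lower one, MSP1, a receptor kinase that limits the number of sporogenous cells, made up most of the summed level of this list, with 287 ± 46.3 CPM in tap against 484 ± 39.8 CPM in WT at 2 mm and 351 ± 37.1 CPM against 490.2 ± 42.2 CPM at 3 mm. The higher one, TDL1A, the ligand of MSP1, had 8.25 ± 0.697 CPM against 6.08 ± 1.07 CPM at 2 mm and 9.58 ± 0.189 CPM against 4.36 ± 0.407 CPM at 3 mm. The sums, which follow MSP1, were 254 to 349 against 464 to 538 CPM at 2 mm and 331 to 404 against 451 to 532 CPM at 3 mm. Leaf markers summed to 36.4 to 67 CPM in tap and 26.7 to 28.1 CPM in WT at 2 mm, and to 39.3 to 72.2 and 18.7 to 29.1 CPM at 3 mm, with no marker of the 3 lists at 0 counts in any of these groups. Among the 5 leaf markers, 0 lower and 1 higher in tap were called at 2 mm and 0 lower and 2 higher at 3 mm. Of the 6 meristem markers, 0 lower and 2 higher in tap were called at 2 mm and 1 lower and 2 higher at 3 mm. The median log2 difference of the 6 was 0.075 at 2 mm and 0.25 at 3 mm, so those called higher do not stand for the whole list. Over all tested loci, 37% were called in either direction at 2 mm and 37.1% at 3 mm. OSH1, a homeobox gene of undifferentiated meristem cells, was one of the higher ones, at 674 ± 54.4 CPM in tap against 529 ± 71.2 CPM in WT at 2 mm (adjusted p = 0.0134). The part of these marker differences in the values of the 7 genes was not tested.

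**Figure D2:**
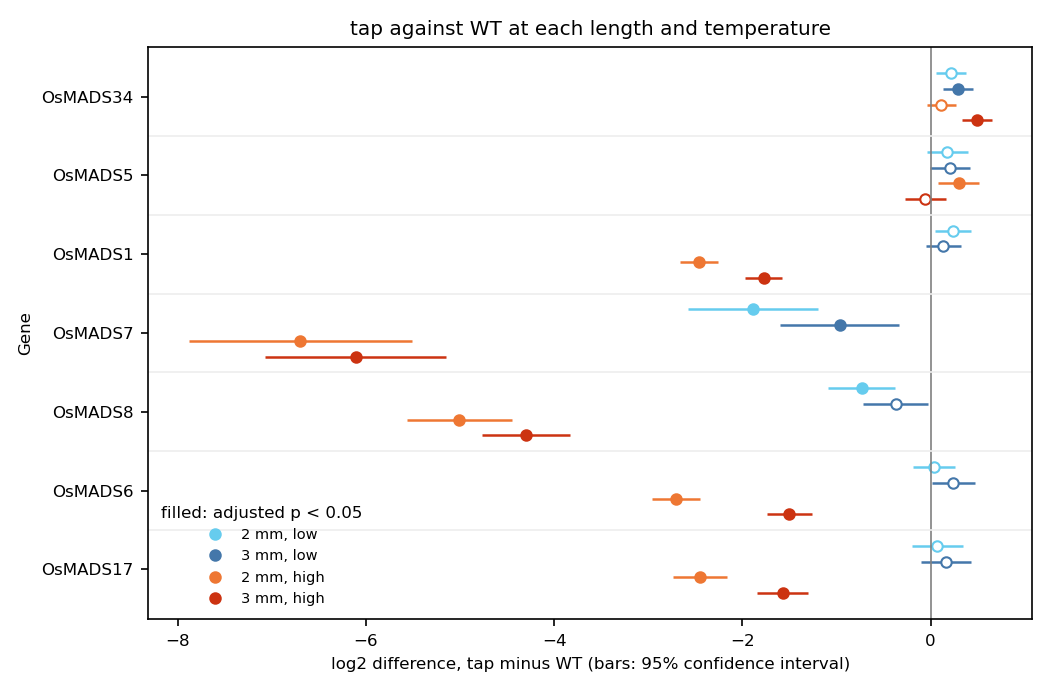
Log2 difference between tap and WT for each gene (horizontal axis, bars are 95% confidence intervals) in the 4 comparisons of 3 against 3 libraries, with filled points for an adjusted p under 0.05. At high temperature OsMADS1, OsMADS7, OsMADS8, OsMADS6 and OsMADS17 lie left of 0, and at low temperature OsMADS7 and OsMADS8 are the lowest.

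At low temperature, OsMADS7 and OsMADS8 were the only members called lower in tap, and the differences were smaller than at high temperature. OsMADS7 fell 3.69-fold at 2 mm and 1.96-fold at 3 mm, and OsMADS8 fell 1.66-fold at 2 mm. OsMADS34 was 1.22-fold higher in tap at 3 mm. At 2 mm, 2 members were called, where 15% of all loci were called, and at 3 mm 2 members were called, where 11.7% of all loci were. OsMADS7 had 4.21, 18.2 and 9.48 CPM in 2 mm tap inflorescences and 46.7, 41.9 and 29.4 CPM in WT. The 3 tap libraries differed from each other more than for any other member here, and all lay below WT (log2 difference -1.89 ± 0.33, adjusted p = 0.000671). The difference was -2.52 without tap replicate 2 and -1.51 without tap replicate 1, and it was not called in a fit of the compared groups alone (adjusted p = 0.0843), in which OsMADS1 and OsMADS34 were called higher in tap (adjusted p = 0.0355 and 0.0159). At 3 mm OsMADS7 had 39.9, 49 and 35 CPM in tap and 85.7, 78.2 and 78.6 CPM in WT. The groups did not overlap, but the call (-0.97 ± 0.30, adjusted p = 0.0447) was lost when any 1 of the 6 libraries was left out (adjusted p 0.0653 to 0.164).

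OsMADS8 had 23.8, 37.2 and 25 CPM in tap and 62.5, 44.8 and 35.5 CPM in WT, for 2 mm at low temperature. Tap replicate 2 lay above WT replicate 3, and the log2 difference of -0.73 ± 0.17 was called (adjusted p = 0.00485), though not in a fit of the compared groups alone (adjusted p = 0.176). The difference ran from -0.96 to -0.48 with 1 library left out, the smallest without WT replicate 1 and the largest without tap replicate 2. At 3 mm OsMADS8 had 50.6, 54.1 and 51.3 CPM in tap and 62, 64.8 and 75.3 CPM in WT, apart from each other but not called (-0.37 ± 0.17, adjusted p = 0.166), whereas the fit of the compared groups alone called this fall (adjusted p = 0.00569). OsMADS34 had 134, 117 and 131 CPM in tap and 107, 112 and 108 CPM in WT at 2 mm (0.22 ± 0.078, adjusted p = 0.0533, or 0.0155 with DESeq2). At 3 mm OsMADS34 had 112, 116 and 109 CPM in tap and 87.1, 98.3 and 90.2 CPM in WT. All tap libraries were above all WT libraries at both lengths, and the 3 mm difference was called (0.29 ± 0.078, adjusted p = 0.0136) except without tap replicate 2 (adjusted p = 0.067) or WT replicate 1 (adjusted p = 0.0875).

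The other 4 genes were not called between genotypes at low temperature. OsMADS1 had 157, 157 and 139.8 CPM in tap and 145, 123 and 117 CPM in WT at 2 mm, with 1 WT library inside the range of tap (0.24 ± 0.092, adjusted p = 0.0856). At 3 mm it had 161, 188 and 175 CPM in tap and 156, 160.1 and 162 CPM in WT (0.13 ± 0.092, adjusted p = 0.4). A fall of OsMADS1 like that at high temperature lies outside the confidence intervals, which were 0.047 to 0.42 and -0.055 to 0.32. OsMADS6 had 124, 149 and 121 CPM in tap and 145, 126 and 114 CPM in WT at 2 mm (95% confidence interval -0.19 to 0.26). At 3 mm OsMADS6 had 152, 174 and 168 CPM and 126, 138 and 154 CPM (interval 0.013 to 0.47). Its groups overlapped at each length. OsMADS17 had 21.9, 23 and 19.2 CPM in tap and 22, 20.3 and 18.7 CPM in WT at 2 mm (interval -0.20 to 0.34), and 24.7, 27.5 and 25.6 CPM against 22.1, 21.4 and 26.1 CPM at 3 mm (interval -0.11 to 0.43). OsMADS5 was at 56.7 ± 1.7 CPM in tap against 50.1 ± 1.94 CPM in WT at 2 mm, and at 59 ± 3.65 CPM and 51.2 ± 1.09 CPM at 3 mm, without overlap but not called (adjusted p = 0.288 and 0.228). The summed meristem markers were higher in tap than in WT here too, at 1297 to 1381 against 1023 to 1134 CPM at 2 mm and 1094 to 1142 against 855 to 947 CPM at 3 mm. OsMADS14 and OsMADS15 are part of this sum. Of the meristem markers, 0 lower and 2 higher were called at 2 mm and 0 lower and 2 higher at 3 mm. Over all tested loci, 15% were called in either direction at 2 mm and 11.7% at 3 mm. Of the 3 anther and meiosis markers tested, MSP1 was called lower and TDL1A higher in tap at 2 mm and none was called at 3 mm by edgeR, where TDL1A had an unadjusted p under 0.05. MSP1 had 205 ± 2.37 CPM against 254 ± 10.4 CPM at 2 mm and TDL1A 13.7 ± 0.551 CPM against 8.77 ± 0.515 CPM, and their part in these values was not tested.

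The difference between tap and WT was not the same in the high- and low-temperature sets for OsMADS1, OsMADS7, OsMADS8, OsMADS6 and OsMADS17 at each length. Temperature cannot be told apart from the set here, and the high-temperature tap columns were assigned by inference. The interaction, which is the log2 difference of tap and WT at high temperature minus that at low temperature, was called for 5 members at 2 mm, where 26.8% of all loci were called, and for 5 members at 3 mm, where 26.4% were. All 10 values were below 0, where 13.6% of all loci were called below 0 at 2 mm and 12% at 3 mm. It was largest for the SEP3-clade pair, at -4.81 ± 0.73 for OsMADS7 (adjusted p = 0.000128) and -4.28 ± 0.33 for OsMADS8 (adjusted p = 2.06e-09) at 2 mm. Without replicate 2 of 2 mm tap at low temperature the OsMADS7 value was -4.17. OsMADS1, OsMADS6 and OsMADS17 lay close together, at -2.70 ± 0.13, -2.74 ± 0.16 and -2.53 ± 0.19 at 2 mm and -1.91 ± 0.13, -1.74 ± 0.16 and -1.73 ± 0.19 at 3 mm. For OsMADS34 the interaction was -0.11 ± 0.11 at 2 mm and 0.20 ± 0.11 at 3 mm, and for OsMADS5 0.12 ± 0.15 and -0.26 ± 0.15, none of which passed the test (adjusted p = 0.509, 0.177, 0.589 and 0.204).

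**Figure D3:**
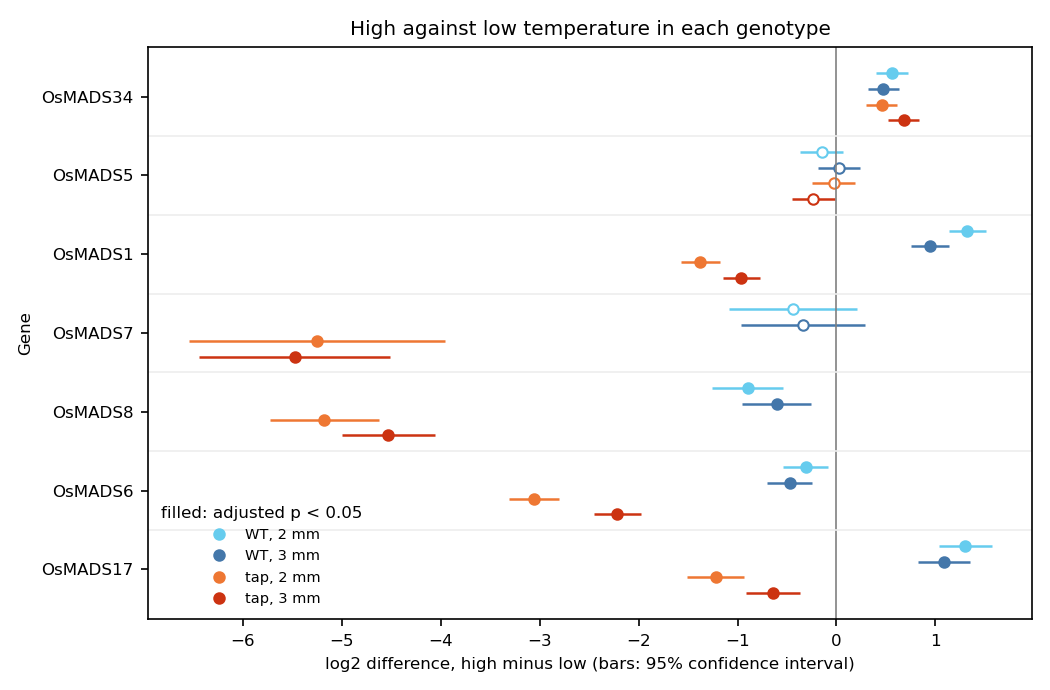
Log2 difference between high and low temperature for each gene (horizontal axis, bars are 95% confidence intervals) in WT and in tap at each length, with filled points for an adjusted p under 0.05. OsMADS1 and OsMADS17 lie right of 0 in WT and left of 0 in tap, while OsMADS34 lies right of 0 in all 4 comparisons.

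Between the temperature sets, OsMADS1 and OsMADS17 went opposite ways in WT and in tap. In WT, OsMADS1 was 2.5-fold higher at high than at low temperature at 2 mm and 1.93-fold higher at 3 mm, whereas in tap it was 2.6-fold and 1.95-fold lower. OsMADS17 was 2.47-fold and 2.13-fold higher in WT and 2.33-fold and 1.56-fold lower in tap. All 8 of these differences were called, with adjusted p at or below 9.67e-05, in comparisons where 63.8% to 69% of all tested loci were called. By library, WT at high temperature held the highest and tap at high temperature the lowest levels of both genes. OsMADS34 was higher at high temperature in both genotypes, by 0.56 and 0.48 on the log2 scale in WT and by 0.46 and 0.68 in tap.

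OsMADS8 and OsMADS6 were lower at high temperature in both genotypes, and more so in tap. In WT, OsMADS8 differed by -0.90 ± 0.17 at 2 mm and -0.60 ± 0.17 at 3 mm, and in tap by -5.18 ± 0.27 and -4.53 ± 0.23. OsMADS6 differed by -0.31 ± 0.11 and -0.47 ± 0.11 in WT and by -3.06 ± 0.12 and -2.21 ± 0.12 in tap. The 2 mm WT call of OsMADS6 (adjusted p = 0.0157) was lost without WT replicate 3 of high temperature or replicate 1 of low temperature (adjusted p up to 0.132). OsMADS7 was 38.1-fold and 44.6-fold lower in tap, and its WT differences of -0.44 ± 0.31 and -0.34 ± 0.30 were not called (adjusted p = 0.22 and 0.328). At 3 mm the WT libraries did not overlap, and a fit of the compared groups alone called OsMADS7 lower at high temperature (adjusted p = 0.0072). At 2 mm the tap difference of OsMADS7 was -4.61 on the log2 scale without replicate 2 of low temperature, against -5.25 with it. OsMADS5 was not called in any of the 4 comparisons, and in 3 mm tap it was close to the threshold (log2 difference -0.23 ± 0.11, adjusted p = 0.0508), which it passed with RLE factors (adjusted p = 0.0299) and under 4 other alternatives. Markers of other tissues differed between the temperature sets in both directions. At high temperature, of the 6 meristem markers, 2 lower and 3 higher in 2 mm WT, 2 lower and 2 higher in 3 mm WT, 2 lower and 2 higher in 2 mm tap and 2 lower and 4 higher in 3 mm tap were called. Of the 3 anther and meiosis markers tested, 1 lower and 1 higher in 2 mm WT, 1 lower and 1 higher in 3 mm WT, 2 lower and 1 higher in 2 mm tap and 1 lower and 1 higher in 3 mm tap were called, with MSP1 higher in all 4. Of the 5 leaf markers, 0 lower and 2 higher in 2 mm WT, 2 lower and 2 higher in 3 mm WT, 0 lower and 4 higher in 2 mm tap and 1 lower and 3 higher in 3 mm tap were called, and their part in these values was not tested. In WT, 5 members were called at 2 mm and 5 at 3 mm, where 63.8% and 65.8% of all loci were, and in tap 6 and 6, where 69% and 68.6% were, so these counts are near the background. With library totals and no scaling factors, the median of all loci was -0.17 to -0.22, against -0.042 to -0.055 with TMM, in these comparisons, which called OsMADS5 lower in 2 mm WT (-0.32, adjusted p = 0.0113, against -0.15 and 0.219 with TMM) and turned the direction of OsMADS5, not called under either scaling, in 3 mm WT from 0.027 to -0.10.

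From 2 mm to 3 mm, OsMADS7 and OsMADS8 rose and OsMADS34 fell in WT at high temperature, while OsMADS1, OsMADS6, OsMADS17 and OsMADS8 rose in tap. In WT at high temperature, OsMADS34 went from 162 ± 7.75 CPM to 128 ± 6.68 CPM (-0.34 ± 0.078, adjusted p = 0.00603), and OsMADS8 from 25.6 ± 3.65 CPM to 44.3 ± 2.55 CPM (0.79 ± 0.17, adjusted p = 0.00615). OsMADS7 went from 29 ± 5.58 CPM to 64 ± 8.11 CPM (1.14 ± 0.31, adjusted p = 0.0332). The call of OsMADS7 was lost when any 1 of the 6 libraries was left out (adjusted p up to 0.163), and that of OsMADS8 without 2 mm replicate 2 (adjusted p = 0.0528), a setting that left 1 member called. These 3 members were called where 6.37% of all loci were. At low temperature no member was called between lengths in WT by edgeR, where 0.368% of all loci were called, although 4 had an unadjusted p under 0.05 (OsMADS1, OsMADS7, OsMADS8 and OsMADS34), and DESeq2 called none of the 7 either. OsMADS7 there went from 39.4 ± 8.95 CPM to 80.8 ± 4.21 CPM (1.04 ± 0.30, adjusted p = 0.215), a rise that was called in a fit of the compared groups alone (adjusted p = 0.0215).

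In tap at high temperature, OsMADS6 rose 2.25-fold from 2 mm to 3 mm, OsMADS17 1.81-fold, OsMADS1 1.54-fold and OsMADS8 2.83-fold, and 4 members were called where 2.21% of all loci were. The adjusted p was 1.72e-06 for OsMADS6, 0.00182 for OsMADS17, 0.000596 for OsMADS1 and 0.0291 for OsMADS8. OsMADS7 had 0.337, 0.211 and 0.267 CPM at 2 mm and 0.545, 1.05 and 1.19 CPM at 3 mm, without overlap. Its log2 difference of 1.73 ± 0.95 was larger than that of the other 6 genes and was not called by edgeR (adjusted p = 0.355), while DESeq2 called it (adjusted p = 0.035). The SE of 0.95, taken from the F value, is only rough at so few reads. The OsMADS8 call was lost in 5 of the 6 fits that left out 1 library, all but that without 2 mm replicate 2, and in a fit of the compared groups alone OsMADS6 was the only member called. At low temperature in tap, OsMADS7 rose from 10.6 ± 7.07 CPM to 41.3 ± 7.11 CPM (1.96 ± 0.33, adjusted p = 0.00486) and OsMADS8 from 28.7 ± 7.41 CPM to 52 ± 1.86 CPM (0.86 ± 0.17, adjusted p = 0.00964), 2 members where 1.33% of all loci were called. The OsMADS7 value was 2.59 without 2 mm replicate 2 and was not called in a fit of the compared groups alone (adjusted p = 0.168), in which OsMADS1 and OsMADS6 were called higher at 3 mm (adjusted p = 0.0357 and 0.00689). The OsMADS8 call was lost without 2 mm replicate 1, 2 mm replicate 3 or 3 mm replicate 2 (adjusted p up to 0.0945), each of which left 1 member called. The summed leaf markers at low temperature were higher at 3 mm, at 64.1 to 148 CPM in tap and 62 to 157 CPM in WT, than at 2 mm, at 19.4 to 45.2 and 22 to 60.3 CPM. Of these 5 markers, 1 was called higher at 3 mm in tap and 0 in WT. At high temperature, 3 of the 6 meristem markers were called lower at 3 mm in WT, where 6.37% of all loci were called, and 0 in tap. The part of these markers in the values of the 7 genes was not tested.

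The rise with length differed between the genotypes at high temperature for OsMADS1, OsMADS6 and OsMADS17, each of which was called between lengths in tap and not in WT. The interaction of genotype and length was 0.69 ± 0.13 for OsMADS1 (adjusted p = 0.00777), 1.21 ± 0.17 for OsMADS6 (adjusted p = 0.000335) and 0.88 ± 0.19 for OsMADS17 (adjusted p = 0.0171). These 3 members were called where 1.27% of all loci were. The OsMADS17 call was lost without replicate 1 or without replicate 3 of 2 mm tap (adjusted p up to 0.0763), and with the 4 high-temperature groups fitted alone OsMADS6 was the only member called. DESeq2 also called the interaction of OsMADS34 (adjusted p = 0.0176), which edgeR did not (0.38 ± 0.11, adjusted p = 0.0805). At low temperature edgeR called no member and 0% of all loci, no member had an unadjusted p under 0.05, and DESeq2 called no member.

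The 7 genes together took fewer reads in tap than in WT at high temperature and a different share fell to each gene. Their summed level was 315 ± 7.88 CPM in tap against 736 ± 10.8 CPM in WT at 2 mm, and 375 ± 12.2 CPM and 745 ± 34.8 CPM at 3 mm. At low temperature the sums were 527 ± 27 CPM in tap against 523 ± 54.7 CPM in WT at 2 mm, and 629.5 ± 37.3 CPM and 613 ± 22.4 CPM at 3 mm. The sums of the genotypes were apart at high temperature and within their spread of each other at low temperature. OsMADS34 gave 55.6% ± 0.615 (SD, n = 3) of the reads of the 7 genes in 2 mm tap at high temperature and 21.9% ± 1.05 in WT, and 47.9% ± 0.449 and 17.1% ± 0.346 at 3 mm. OsMADS1 gave 18.5% ± 1.58 in 2 mm tap and 43.7% ± 1.74 in WT. OsMADS7 and OsMADS8 together stayed under 1% in tap at high temperature, with 0.247% ± 0.0897 and 0.6% ± 0.0927 at 3 mm, against 8.59% ± 1.06 and 5.95% ± 0.261 in WT. These are shares of reads and not of transcripts, since lengths were not used.

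**Figure D4:**
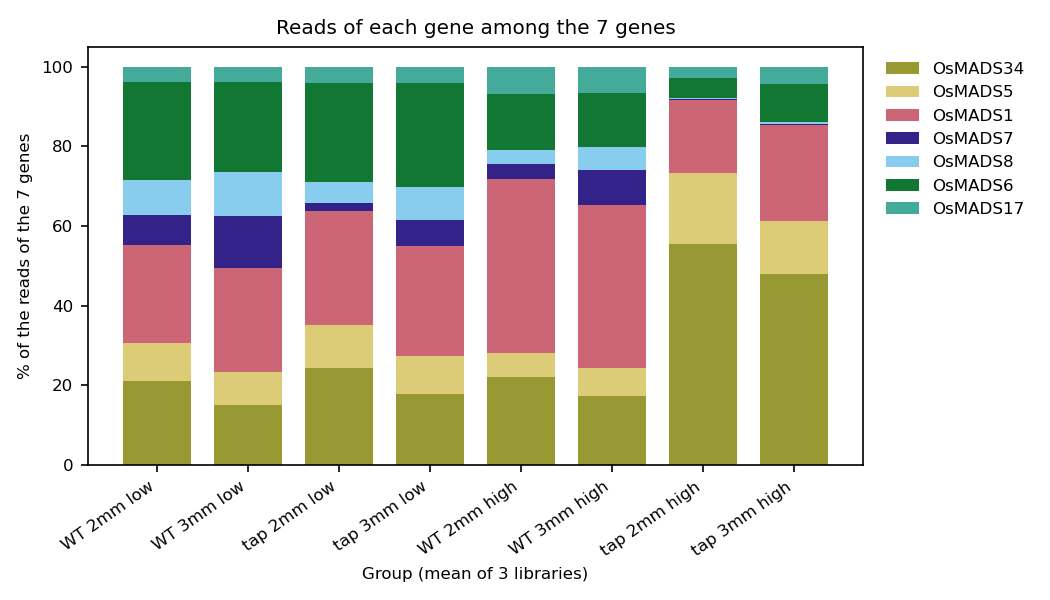
Mean share (percent, vertical axis) of each gene in the reads of the 7 genes in the 8 groups of 3 libraries. OsMADS34 holds 55.6% in 2 mm tap and 21.9% in 2 mm WT at high temperature.

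Within a library, the ratio of 2 genes does not depend on how libraries are scaled. The log2 ratio of OsMADS1 to OsMADS34 counts was -1.59 ± 0.14 in tap and 0.99 ± 0.12 in WT, for 2 mm at high temperature, and -1.002 ± 0.094 and 1.27 ± 0.027 at 3 mm. At low temperature it was 0.25 ± 0.17 and 0.23 ± 0.18 at 2 mm, and 0.64 ± 0.10 and 0.80 ± 0.080 at 3 mm. Over both lengths the ratio was lower in tap by 2.43 on the log2 scale at high temperature (tap minus WT -2.43, adjusted p = 0.01, exact permutation test), and at low temperature the difference was -0.068 (adjusted p = 0.502, exact permutation test). The test was two-sided, exchanged the genotype labels within each length, and had 400 arrangements and a smallest possible p of 0.005, and p was adjusted over the 6 tests. OsMADS7 was lower relative to its partner OsMADS8 in tap at both temperatures, with a tap minus WT difference in their log2 ratio of -1.71 at high temperature and -0.99 at low temperature (adjusted p = 0.01 and 0.01, exact permutation test). In 2 mm tap the ratio of OsMADS7 to OsMADS8 had the widest spread, at -1.42 ± 0.86 at high and -1.64 ± 0.76 at low temperature.

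The ratio of OsMADS6 to OsMADS17 was higher in the low-temperature set than in the high-temperature set in both genotypes. Its log2 value was 2.62 ± 0.10, 2.66 ± 0.044, 2.65 ± 0.062 and 2.59 ± 0.091 in the low-temperature groups of 2 mm tap, 3 mm tap, 2 mm WT and 3 mm WT. In the same groups at high temperature it was 0.82 ± 0.31, 1.09 ± 0.12, 1.04 ± 0.15 and 1.03 ± 0.013. No high-temperature library overlapped a low-temperature library. The tap minus WT difference was -0.079 at high and 0.021 at low temperature (adjusted p = 0.66 and 0.66, exact permutation test), so a change of this ratio with genotype was not detected while both genes fell in tap at high temperature.

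**Figure D5:**
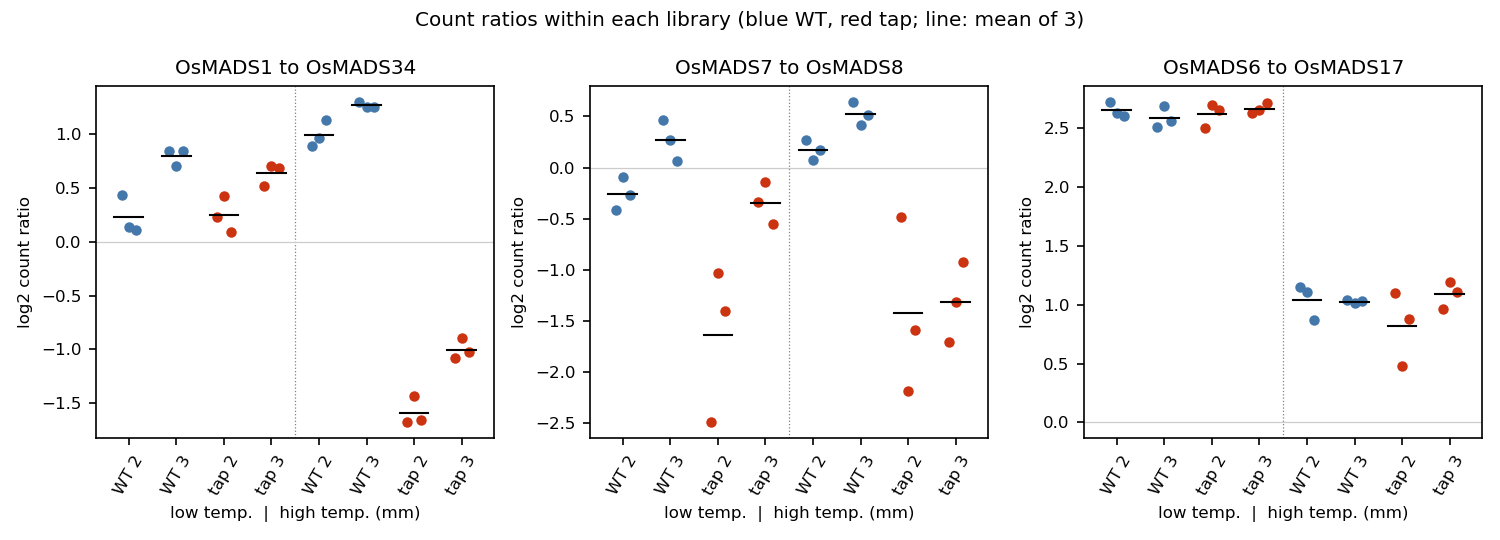
Log2 ratio of the counts of 2 genes in each library (vertical axis), for OsMADS1 to OsMADS34, OsMADS7 to OsMADS8 and OsMADS6 to OsMADS17, with blue points for WT, red points for tap and lines at means of 3 libraries. The ratio of OsMADS6 to OsMADS17 lies above 2.5 in all low-temperature libraries and below 1.2 in all high-temperature libraries.

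Factors for floral organs, with which SEP-like proteins form complexes, were followed in a list of 16 other floral MADS-box genes. The list is mixed and also holds OsMADS22, OsMADS47, OsMADS55, OsMADS50 and OsMADS56, which are of other classes. Of the 16, 14 are in the table and were tested, and the counts and medians below are over this mixed list. At high temperature, 7 lower and 1 higher in tap were called at 2 mm (median log2 difference -0.63) and 8 lower and 2 higher at 3 mm (median -0.54). Of all tested loci, 18.6% were called lower and 18.4% higher at 2 mm, and 17.8% lower and 19.3% higher at 3 mm. At low temperature, 5 lower and 3 higher were called at 2 mm (median -0.25) and 5 lower and 2 higher at 3 mm (median -0.00023). There, 15% of all tested loci were called in either direction at 2 mm and 11.7% at 3 mm. The factors for the inner floral organs fell furthest at high temperature. OsMADS16, which acts on lodicule and stamen identity, had 1.73, 2.21 and 2.08 CPM in 2 mm tap and 33.4, 37.9 and 41.3 CPM in WT. At 3 mm its values were 1.78, 2.37 and 1.55 CPM and 75.2, 69.8 and 77.8 CPM, without overlap, and the log2 differences were -4.22 ± 0.30 (adjusted p = 1.68e-09) and -5.29 ± 0.30 (adjusted p = 5.26e-11). OsMADS4 and OsMADS2, its PISTILLATA-like partners, differed by -4.37 ± 0.21 and -1.64 ± 0.11 at 2 mm and by -5.01 ± 0.21 and -1.97 ± 0.11 at 3 mm. OsMADS3, a stamen and carpel gene, differed by -4.38 ± 0.24 at 2 mm and -3.62 ± 0.22 at 3 mm. All of these falls were called at each length.

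OsMADS58, which acts on carpels and on ending the floral meristem, was nearly without reads in tap at high temperature. It had 2 counts in the 3 libraries of 2 mm tap and 97 in WT, a 48.1-fold ratio with an exact 95% counting interval of 13 to 403, and at 3 mm 1 count against 324. OsMADS13, the ovule gene of the list, had 0 counts in all 6 tap libraries and 30 counts in 2 mm and 54 in 3 mm WT. With 3 counts over the tap group taken as a floor, WT was 9.93-fold above that floor at 2 mm and 17.8-fold at 3 mm. The interval covers counting error only. The floor takes the WT counts as exact, although they were 3 to 15 a library at 2 mm, so these folds are not strict lower bounds. OsMADS14 and OsMADS15, APETALA1-like genes that act early in the panicle, were not called lower, and a difference in stage was not tested. OsMADS14 was at 435 ± 88.3 CPM in tap against 413 ± 19 CPM in WT at 2 mm (adjusted p = 0.622), and OsMADS15 was higher in tap at 2 mm, by 0.42 ± 0.10 (adjusted p = 0.00139), and at 3 mm, by 0.41 ± 0.10 (adjusted p = 0.00175). At low temperature the largest called falls in this list were those of OsMADS58 (-2.36 ± 0.33), OsMADS16 (-1.88 ± 0.24), OsMADS4 (-1.65 ± 0.18) and OsMADS13 (-1.26 ± 0.41) at 2 mm. The identifier of OsMADS14, LOC_Os03g54160, is numbered next to that of OsMADS34. That of DL, a spikelet gene described below, is LOC_Os03g11600 and is numbered close to that of OsMADS1, LOC_Os03g11614. No strand setting is given in the sources used here, so reads of overlapping loci could not be told apart. Reads of similar sequence, as in the pair of OsMADS7 and OsMADS8, may have been left out or placed at either locus.

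Of 6 further spikelet genes, 3 carry the listed name in the RefSeq table, namely DL, G1 and FZP. Of the 6, 4 lower and 0 higher in tap were called at 2 mm and high temperature (median log2 difference -0.97), and 4 lower and 0 higher at 3 mm (median -0.93). Low temperature gave 2 lower and 2 higher at 2 mm (median -0.16), with 1 lower and 1 higher at 3 mm (median -0.068). At high temperature 18.6% of all tested loci were called lower in tap at 2 mm and 17.8% at 3 mm. At low temperature 15% were called in either direction at 2 mm and 11.7% at 3 mm. DL, which acts on carpel identity and the leaf midrib, had 9.05, 13.5 and 10.7 CPM in 2 mm tap and 85.5, 86.2 and 104 CPM in WT at high temperature, without overlap (log2 difference -3.05 ± 0.17, adjusted p = 2.67e-13). G1, which acts on sterile lemma identity, had 5.3, 17.8 and 3.25 CPM and 60.8, 47.5 and 21.4 CPM. Its libraries varied widely within each group, and the difference was called (-2.31 ± 0.56, adjusted p = 0.0041). FZP, which acts on the identity of the spikelet meristem, was at 2.63 ± 0.297 CPM in tap against 3.13 ± 1.38 CPM in WT, for 2 mm at high temperature (adjusted p = 0.498), and at 6.87 ± 0.892 CPM and 3.19 ± 0.754 CPM at 3 mm and low temperature, where it was higher in tap (adjusted p = 0.00279).

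The profiles of the 7 genes over the 8 group means fell into a few shapes. Pearson's r of log2 CPM over these 8 means, which share their libraries and their scaling, was 0.99 for OsMADS1 and OsMADS17, 0.98 for OsMADS7 and OsMADS8, 0.98 for OsMADS8 and OsMADS6 and 0.67 for OsMADS6 and OsMADS17. It was negative for OsMADS34 with OsMADS8, at -0.83 and with OsMADS7, at -0.80. Within a temperature set, over 4 group means each, r was 0.995 at high and 0.93 at low temperature for OsMADS1 and OsMADS17, 0.998 at high and 0.99 at low temperature for OsMADS7 and OsMADS8, 0.98 at high and 0.40 at low temperature for OsMADS8 and OsMADS6 and 0.998 at high and 0.98 at low temperature for OsMADS6 and OsMADS17. OsMADS6 thus varied with OsMADS17 more closely within each set than over both, and with OsMADS8 less closely within the low-temperature set. In the order of group means, OsMADS1 and OsMADS17 were highest in the 2 WT groups at high temperature, whose ranges overlapped each other, then in the 4 low-temperature groups, whose neighbours in the order overlapped, and lowest in tap at high temperature. OsMADS7 and OsMADS8 were highest in 3 mm WT at low temperature and OsMADS6 in 3 mm tap at low temperature, and all 3 were lowest in tap at high temperature. OsMADS34 had 3 mm and 2 mm tap at high temperature first, overlapping each other, and 3 mm WT at low temperature last, while the neighbours in the order of OsMADS5 overlapped throughout.

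Among 16214 tested loci with a mean of at least 5 CPM, the locus outside the 7 whose 8 group means were most like those of OsMADS1 was LOC_Os01g71106 (r = 0.993), and for OsMADS17 it was LOC_Os03g23030 (r = 0.991). For OsMADS7 it was LOC_Os05g48990 (r = 0.991), for OsMADS8 LOC_Os11g43590 (r = 0.997) and for OsMADS6 LOC_Os02g01940 (r = 0.996). OsMADS34 was most like LOC_Os07g47350 (r = 0.995) and OsMADS5 most like LOC_Os02g33820 (r = 0.969). These are the highest of many correlations over 8 points and are given as descriptions, and the files do not pair these identifiers with names.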

How the data were processed

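Per the labels' protocols, an RNeasy kit gave the RNA and a SMARTER mRNA-Seq kit the libraries. Trimmomatic, HISAT2, HTSeq and the build IRGSP-1.0 are named in the submitters' processing notes, with versions, annotation and strand setting not given in the sources used here. Raw read counts per locus were what the authors deposited, for 26480 loci. Of these, 70 without high-temperature values were left out, and 723 loci of the rest had 0 counts in all high-temperature libraries. At low temperature every locus had at least 10 counts in sum.

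Counts were tested with edgeR 4.0.16 (limma 3.58.1, R 4.3.3) with its quasi-likelihood F test, robust dispersions, TMM scaling and filterByExpr, which kept 23658 loci, in a model with a mean per group over 24 libraries (16 residual degrees of freedom, 16 contrasts). P-values were adjusted by the Benjamini-Hochberg method over all tested loci and called under 0.05. The log2 standard error is the log2 difference divided by the square root of F, and the confidence intervals are built from it. Both are rough for genes with few reads, such as OsMADS7 in tap at high temperature. The fit was tested on simulated data. Library pairs within a group differed by chi-square values of 3.31 to 29.2 per degree of freedom, so none was a duplicate. Count ratios used a pseudocount of 0.5.

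The 7 genes and all gene lists were chosen with earlier results of these data known. All 7 are named in every comparison. Other loci are named where they are called with a log2 difference of at least 1 and carry the listed name in RefSeq, at most 4 per list and comparison, or are the most like a member. OSH1, MSP1, TDL1A, OsMADS14, OsMADS15 and loci beyond these 4 were named after their values were seen. DESeq2 1.42.0, RLE factors, library totals, no filter, fits of the compared groups alone, a replicate block and leaving out each library were alternatives.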

Additional observations from a re-analysis of the deposited data

Results flagged for a closer look

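For 5 of the 7 genes the difference between tap and WT was not the same at the 2 temperatures, by a test of the interaction itself. At 2 mm the log2 interaction was -2.70 for OsMADS1, -4.81 for OsMADS7, -4.28 for OsMADS8, -2.74 for OsMADS6 and -2.53 for OsMADS17. At 3 mm it was -1.91 for OsMADS1, -5.14 for OsMADS7, -3.93 for OsMADS8, -1.74 for OsMADS6 and -1.73 for OsMADS17. Temperature cannot be told apart from the set in which the libraries were made.

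For 3 genes the difference between tap and WT at high temperature was not the same at the 2 lengths, again by a test of the interaction. Its log2 value was 0.69 for OsMADS1, 1.21 for OsMADS6 and 0.88 for OsMADS17, with tap closer to WT at 3 mm in each case.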

How the results depend on the processing

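With RLE factors, all counts of called members stayed within 1.5 times. At 3 mm and low temperature, the members called between tap and WT numbered 1 and not 2 with library totals, with no filter, with DESeq2 and with a replicate block. In fits of the compared groups alone, the members called were 1 and not 3 for the genotype by length interaction at high temperature, 1 and not 4 between lengths in tap at high temperature, and 1 and not 0 in WT at low temperature. All loci called in such fits were 5574 and not 3542 between tap and WT at 2 mm and low temperature, 48 and not 301 for the interaction, and 40 and not 523 between lengths in tap at high and 1189 and not 315 at low temperature. DESeq2 called 597 loci for the interaction, 1058 between lengths in tap at high temperature, and 172 and not 87 in WT at low temperature. The cause was not tested, beyond the fewer samples that a fit of the compared groups holds.

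With 1 library left out, the interaction had 111 to 622 loci called, and lengths in tap had 77 to 2298 at high and 106 to 215 at low temperature, with 1 to 2 members at low temperature. Lengths in WT had 755 to 1760 loci and 1 to 2 members at high and 4 to 94 loci and 0 to 1 members at low temperature, and tap against WT at 3 mm and low temperature had 1784 to 2381 loci and 0 to 1 members. Values near 0 that changed sign with 1 library left out ran, for OsMADS5, -0.10 to 0.11 between temperatures in 2 mm tap, -0.0023 to 0.085 in 3 mm WT, -0.18 to 0.019 between tap and WT for 3 mm at high temperature, -0.020 to 0.069 for genotype by length and -0.00083 to 0.051 between lengths in WT at low temperature. Others ran -0.031 to 0.045 for OsMADS34 between lengths in tap, -0.11 to 0.040 and -0.13 to 0.024 for OsMADS17 and OsMADS6 in WT at high temperature, -0.065 to 0.13 for OsMADS6 in tap against WT at 2 mm and low temperature, and -0.15 to 0.00448 for the ratio of OsMADS6 to OsMADS17 at high temperature. Library totals turned OsMADS5 to -0.10 between temperatures in 3 mm WT and to -0.0012 between lengths in WT at low temperature, and no filter turned it to 0.0092 between temperatures in 2 mm tap. None of these values was called.

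The deviations of same-numbered libraries of different groups from their group means had a median correlation of -0.000241 over 84 pairs. Of these pairs, 19 were over 0.1, with a highest value of 0.296. Among the 12 same-numbered tap and WT pairs of one length and temperature, 4 were over 0.1. Of 24 libraries, 10 were closest to their own number. A pairing by number was thus neither shown nor excluded. The replicate block left the count of called loci within 1.5 times in all 16 comparisons and the members called at 1 at 3 mm and low temperature. For the ratios, exchanging labels within numbered pairs left -2.43, -1.71 and -0.99 with an adjusted p of 0.0625 (exact), in a test with fewer arrangements. Each of these was at the smallest p of that test. With the other ratio results as they were, the adjusted p could not fall under 0.05. OsMADS7 in tap at high temperature rested on 4 to 23 reads a library.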
